A study of Mus musculus with 12 samples.

Results

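The Hoxa cluster genes were followed across 12 arrays of F9 cells. The members were chosen by the platform annotation alone, as every probe set that names one of 9 Hoxa genes. They came to 14 probe sets of 37600 tested, or 9 of 16509 named genes. In 3′ to 5′ order along the cluster they were Hoxa2, Hoxa3 (4 probe sets), Hoxa4, Hoxa5 (2 probe sets), Hoxa7, Hoxa9 (2 probe sets), Hoxa10, Hoxa11 and Hoxa13, and each of the 14 was measured on all 12 arrays. F9 is a mouse teratocarcinoma line that resembles early embryonic cells and differentiates when given retinoic acid. The 4 groups held 3 arrays each. In cells labelled RARaKO the gene Rara, which encodes retinoic acid receptor alpha, is knocked out by the label, and these cells received 1 µM all-trans retinoic acid (atRA) or the ethanol (EtOH) vehicle at 0.1%, and so did WT cells. Cells of all groups had been in the protein synthesis inhibitor cycloheximide (1 µg/ml) for 30 min before the 7.5 h treatment and stayed in it. The labels number the arrays of a group as sets 2, 3 and 4 and do not say whether sets came from separate cultures, so a p-value here covers no more than array to array spread, part or all of which may be technical.

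Hox genes encode homeodomain transcription factors that give cells their position along the head to tail axis of the embryo. They lie in clusters in which 3′ genes are switched on earlier and further forward than 5′ genes, an order called collinearity. Retinoic acid binds nuclear receptors (RARs, paired with RXRs) that sit on direct repeats of a short motif near their targets, and 3′ Hox genes are long known targets in teratocarcinoma cells. Cycloheximide is used in such designs to keep cells from making intermediate proteins, and how far it did so was not measured here.

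Each value is expression, on what is taken to be a log2 scale, minus the probe set's own median over the 12 arrays. A value of 0 is therefore that median, and no absolute level is held. In what follows a level is such a relative value, a difference is one group's mean minus another's, and an error after a difference is the standard error of the fit. A difference was called when its adjusted p was under 0.05 in limma. From the number format of the deposited values a coarse class of the lost median could be read. It lay at 8 or above for the Hoxa5 probe set 1448926_at and between 4 and 8 for the other 13. Bulk arrays do not tell fewer expressing cells from less RNA per cell.

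Facts of the whole series bear on the labels. The single Rara probe set read higher in the arrays labelled RARaKO, by 0.36 ± 0.09 in atRA (limma adjusted p = 0.0488) and by 0.90 ± 0.09 in EtOH (adjusted p = 0.00015), which goes against the label, and whether its target lies outside the deleted sequence was not tested. The genotype groups are therefore called by their labels, and each genotype direction rests on those labels. Of 10 markers of pluripotent cells fixed for F9, such as Pou5f1, 8 had a median in the class of 8 or above, and none was called in any of the 5 comparisons (limma). Sox2 and Zfp42 fell below a class of 4 or were unresolved. The class of 8 or above also held 9 of 11 markers of extraembryonic endoderm, so it did not set the pluripotent markers apart. No marker of extraembryonic endoderm was called in a response to atRA (0 of 11 in each genotype, limma; unadjusted p under 0.05 for 1 in the arrays labelled RARaKO and 0 in WT), nor was any neural marker (0 of 6; unadjusted for 0 in the arrays labelled RARaKO and 1 in WT). Between genotypes 1 of the 6 neural markers, Tubb3, read higher in the arrays labelled RARaKO, by 0.70 in atRA and 0.65 in EtOH, and its part in the genotype values below was not tested. Of 5 measured fibroblast markers, Pdgfrb was called, by 0.52 ± 0.08 in the arrays labelled RARaKO and 0.50 ± 0.08 in WT. The medians of the 5 were 0.09 in the arrays labelled RARaKO and 0 in WT, and Vim stood at -0.36 ± 0.10 (adjusted p = 0.297) in the arrays labelled RARaKO and -0.37 ± 0.10 (adjusted p = 0.233) in WT. The mean 5′ minus 3′ difference of 4 control transcripts, a sign of RNA quality, ranged over 0.00122 to 0.0897 in RARaKO atRA, -0.0227 to 0.132 in RARaKO EtOH, -0.0248 to 0.0178 in WT atRA and -0.123 to -0.0844 in WT EtOH. It parted the WT groups and the EtOH groups, and its part in the Hoxa results was not tested.

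The promoters of members that moved together are shown first, since the receptors named above act through DNA. RefSeq promoters (GRCm38.p6, 250 bases before to 50 after the start) were at hand for 8 of the 9 genes, 9 promoters in all, with Hoxa10 holding 2 and Hoxa4 none. Of the members called in a response, Hoxa2, Hoxa3 and Hoxa5 are printed, as the 250 bases before the start, on the strand of the gene. Capitals mark the motifs found on either strand: TTTATT (caudal type, read here as AATAAA on the other strand), TGATNNAT (Hox with Pbx) and TGACAG (Meis, read as CTGTCA on the other strand).
Hoxa2 (chr6:52164832-52165081, minus strand): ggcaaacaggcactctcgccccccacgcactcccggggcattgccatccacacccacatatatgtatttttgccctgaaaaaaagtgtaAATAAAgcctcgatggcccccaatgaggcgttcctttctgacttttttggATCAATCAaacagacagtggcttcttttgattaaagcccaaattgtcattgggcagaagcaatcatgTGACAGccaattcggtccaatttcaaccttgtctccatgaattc
Hoxa3 (chr6:52213068-52213317, minus strand): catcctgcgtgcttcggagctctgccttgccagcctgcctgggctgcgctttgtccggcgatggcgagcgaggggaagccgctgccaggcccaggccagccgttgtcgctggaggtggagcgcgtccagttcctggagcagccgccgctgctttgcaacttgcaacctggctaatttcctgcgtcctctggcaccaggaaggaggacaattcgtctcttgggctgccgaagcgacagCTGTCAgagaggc
Hoxa5 (chr6:52204588-52204837, minus strand): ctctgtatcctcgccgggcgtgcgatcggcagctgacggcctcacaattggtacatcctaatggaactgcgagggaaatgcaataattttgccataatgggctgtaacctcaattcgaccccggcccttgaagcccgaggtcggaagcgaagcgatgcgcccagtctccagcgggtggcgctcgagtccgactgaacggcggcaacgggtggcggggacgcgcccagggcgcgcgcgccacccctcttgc

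The search took the receptor hexamer as AGGTCA with its variants AGTTCA, then GGTTCA, and also GGGTCA on both strands, singly and as direct repeats spaced by 1, 2 or 5 bases. It also took TTTATG with TTTATT and then TTTACG for caudal factors, the Hox with Pbx and Meis motifs above, and TATAAA. None of the motifs found in the printed promoters overlapped another. No hexamer lay in the Hoxa2 or Hoxa3 promoter, while the Hoxa5 promoter held AGGTCA from 42 to 47 counted from the start, beyond the bases printed. The Hoxa3 window lay between those of Hoxa5 and Hoxa7 on the chromosome. Whether the transcripts read by the Hoxa3 probe sets begin there was not tested. A hexamer lay in 4 of the 9 Hoxa promoters, against 43.7% of all 32851 promoters. No direct repeat lay in any of the 9, and such repeats are rare in these windows throughout, at 0.222% for a spacing of 1, 0.268% for 2 and 0.0974% for 5. The Hoxa2 promoter held TGATNNAT from -111 to -104 counted from the start, a motif in 8.85% of all promoters, and TGACAG from -44 to -39, a motif in 19.2%. The Hoxa3 promoter held TGACAG from -13 to -8. A caudal motif lay in 3 of the 9 (Hoxa2, Hoxa7 and 1 of the Hoxa10 promoters), against 29.9% of all. In base composition the printed stretches differed, with 46.4% G and C for Hoxa2, 64.8% for Hoxa3 and 63.6% for Hoxa5. These matches describe the windows searched and say nothing of binding.

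**Figure D1:**
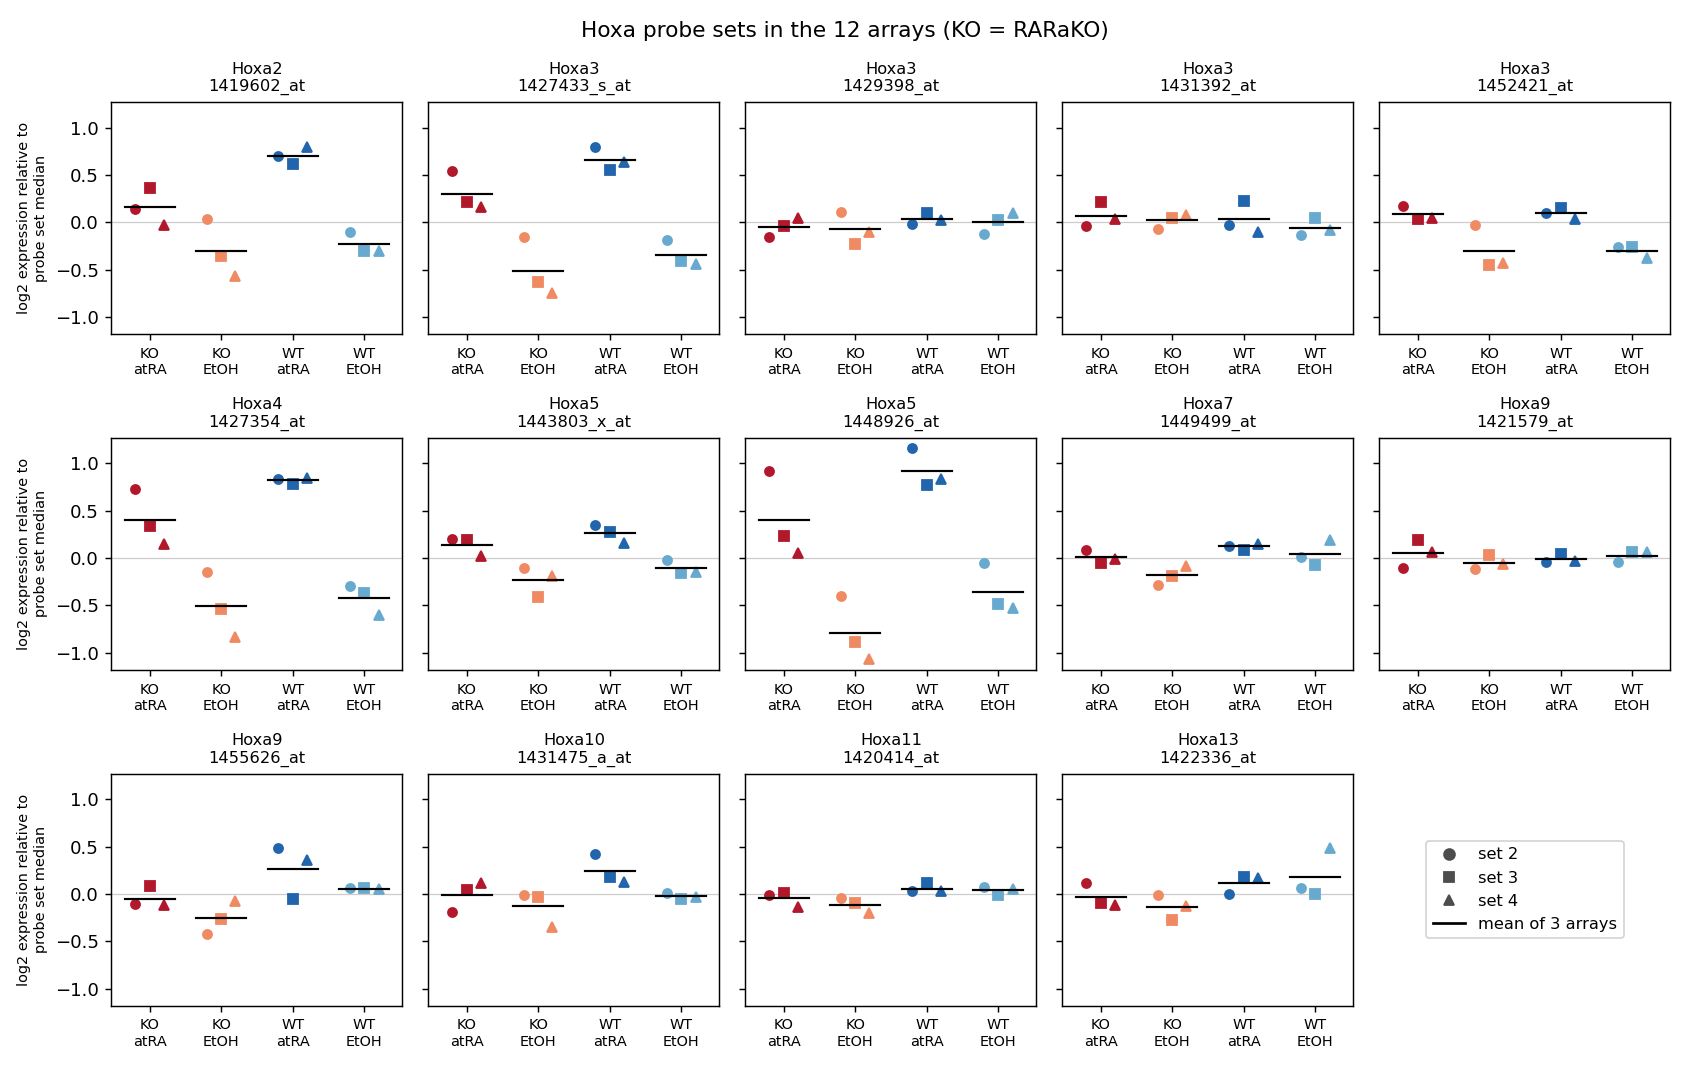
Log2 expression relative to the probe set median for each of the 14 Hoxa probe sets (1 panel each, in 3′ to 5′ order), with a point per array, its shape giving the set, and a bar for the mean of 3 arrays, in RARaKO atRA, RARaKO EtOH, WT atRA and WT EtOH. The atRA arrays stand above the EtOH arrays in probe sets of Hoxa3, Hoxa4 and Hoxa5 in both genotypes, while the panels from Hoxa7 to Hoxa13 stay between -0.42 and 0.49.

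The response of WT cells asks which Hoxa transcripts changed with atRA in the presence of cycloheximide. Probe sets of 4 genes rose (Hoxa2, Hoxa3, Hoxa4 and Hoxa5), those of the other 5 genes did not pass the test, and none fell. In probe sets, 4 of 14 were called higher, against 0.484% of all probe sets, and 0 lower, against 0.0851%. At an unadjusted p under 0.05 there were 7, all higher, against 7.27% of all in either direction. The 3 WT atRA arrays lay wholly above the 3 WT EtOH arrays in 7 of the 14, against 6.22% of all. The median difference over the 14 was 0.24, against -0.0122 over all probe sets.

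Hoxa2, which patterns the hindbrain and the second pharyngeal arch, had levels of 0.70, 0.61 and 0.79 in WT atRA (sets 2, 3 and 4), against -0.10, -0.30 and -0.30 in WT EtOH. The groups did not overlap. The difference was 0.93 ± 0.14, or 1.91-fold (limma adjusted p = 0.00691). Hoxa3, needed for the thymus and parathyroids, had levels of 0.79, 0.55 and 0.64 in WT atRA on probe set 1427433_s_at, against -0.19, -0.41 and -0.44 in WT EtOH. Here too every atRA array stood above every EtOH array, with set 2 the highest in each group. Its difference was 1.01 ± 0.14, or 2.01-fold (adjusted p = 0.00541).

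Hoxa4, a neighbour that acts in the cervical spine, had levels of 0.84, 0.78 and 0.85 in WT atRA, against -0.30, -0.37 and -0.60 in WT EtOH. The atRA arrays were the closest together of any group for this probe set (SD 0.042, n = 3). The difference was 1.25 ± 0.16, or 2.38-fold (adjusted p = 0.00296). Hoxa5, which acts in the cervical spine and the lung, had levels of 1.16, 0.77 and 0.83 in WT atRA on probe set 1448926_at, against -0.05, -0.49 and -0.53 in WT EtOH. The groups did not overlap and set 2 stood highest in both. The difference was 1.28 ± 0.22, or 2.43-fold (adjusted p = 0.0204). That call was lost without WT atRA replicate 2, 3 or 4 or WT EtOH replicate 3 or 4 (adjusted p between 0.0704 and 0.108), while the other 3 genes stayed called without any single array. Without the whole of set 3 no Hoxa probe set was called, and without set 4 only Hoxa4 was.

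Probe sets of a single gene gave different values. Of the 4 for Hoxa3, 1452421_at shares its source sequence with 1427433_s_at in the platform annotation. It read 0.10, 0.15 and 0.03 in WT atRA, against -0.26, -0.26 and -0.38 in WT EtOH, a difference of 0.39 ± 0.10 (limma adjusted p = 0.167). The groups again did not overlap, at a smaller size. The remaining Hoxa3 probe sets gave 0.03 ± 0.09 (1429398_at, adjusted p = 0.977) and 0.09 ± 0.09 (1431392_at, adjusted p = 0.925), with overlapping groups. The called Hoxa3 probe set, 1427433_s_at, is of a type (s_at) whose probes can match several transcripts. RefSeq gives Hoxa3 a span that overlaps Hoxa4 and Hoxa5, and which transcripts each probe set reads was not tested. The second Hoxa5 probe set, 1443803_x_at, is of the type whose probes can match other transcripts. It read 0.35, 0.28 and 0.16 in WT atRA, against -0.02, -0.16 and -0.15 in WT EtOH. Its difference was 0.37 ± 0.09 (adjusted p = 0.119, and 0.0472 with the set as a block).

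From Hoxa7 on, no probe set was called in WT. Hoxa7, a trunk gene, differed by 0.08 ± 0.08 (95% interval -0.09 to 0.24), and the 2 probe sets of Hoxa9, known from limb and blood cells, by -0.04 ± 0.08 and 0.21 ± 0.12. Hoxa10, which acts in the uterus and lumbar spine, had the largest value of these, 0.27 ± 0.11 (limma adjusted p = 0.593). Its levels were 0.42, 0.18 and 0.13 in WT atRA, against 0.01, -0.05 and -0.03 in WT EtOH, so its groups did not overlap. Hoxa11, a gene of the limb and kidney, differed by 0.02 ± 0.07 (interval -0.13 to 0.16) and Hoxa13, of the digits and hindgut, by -0.06 ± 0.12 (interval -0.33 to 0.20). A cut of the cluster after Hoxa5 lies where the WT calls end, so medians by block are no test of position. By block of genes, the 8 probe sets from Hoxa2 to Hoxa5 had a median of 0.66 and the 6 from Hoxa7 to Hoxa13 a median of 0.05. Within the called genes the size ran the other way, from 0.93 for Hoxa2 up to 1.28 for Hoxa5, though these 4 values had intervals that overlapped (lowest bound 0.63, highest 1.76). Across the 9 genes, with the probe sets of a gene averaged, Spearman's rho between position and response was -0.85 in each genotype, and with 1 probe set a gene chosen by its class and type (for Hoxa3 this was 1429398_at) it was -0.35 in the arrays labelled RARaKO and -0.633 in WT. These describe 9 neighbouring genes on the same arrays.

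**Figure D2:**
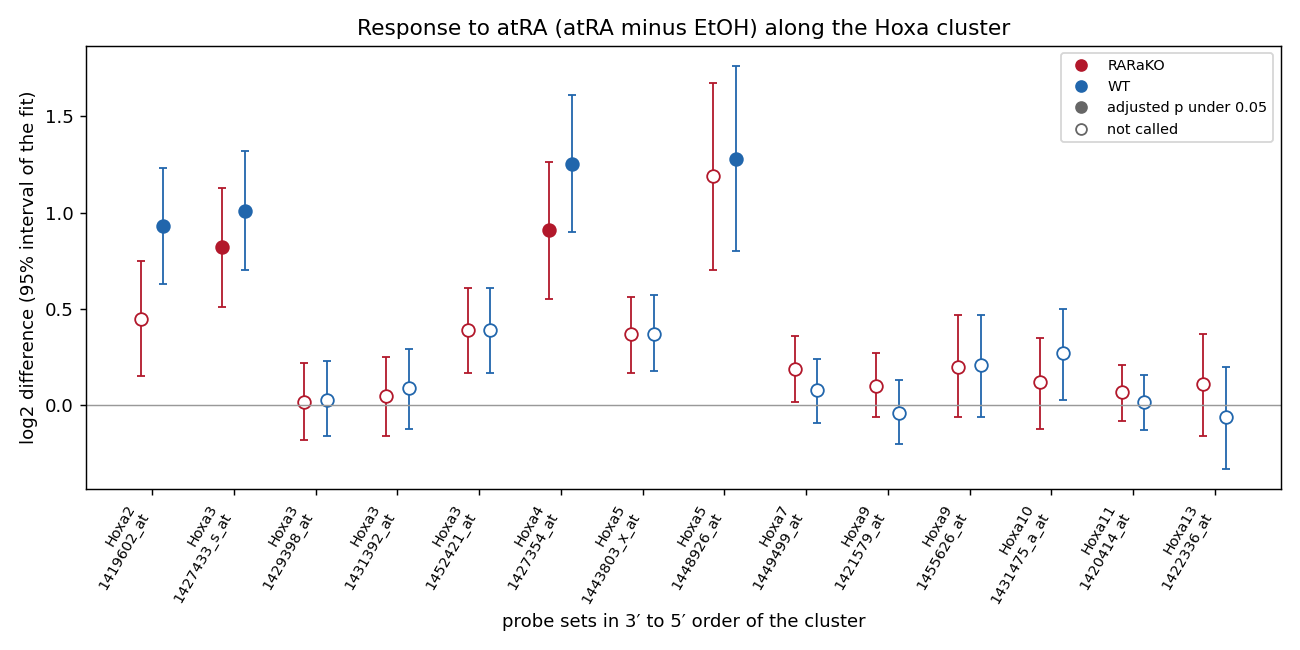
Log2 difference of atRA minus EtOH for the 14 Hoxa probe sets in 3′ to 5′ order, in RARaKO (red) and WT (blue), with bars for the 95% interval of the fit and filled points for an adjusted p under 0.05. The filled points all lie from Hoxa2 to Hoxa5, and the intervals of both Hoxa5 probe sets stay above 0 in both genotypes.

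For the arrays labelled RARaKO the question was whether Hoxa transcripts still changed with atRA. Hoxa3 and Hoxa4 rose, Hoxa5 differed by about as much as in WT but just missed the threshold, and Hoxa2 differed by less. In probe sets, 2 of 14 were called higher, against 0.215% of all probe sets, and 0 lower, against 0.0479%. At an unadjusted p under 0.05 there were 7, all higher, against 8.2% of all in either direction, and all 14 differences were positive. The 3 atRA arrays lay wholly above the 3 EtOH arrays in 6 of 14, against 7.31% of all. The median over the 14 was 0.20, against -0.004 over all probe sets.

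Hoxa4 had levels of 0.73, 0.34 and 0.15 in RARaKO atRA, against -0.15, -0.54 and -0.83 in RARaKO EtOH. The groups did not overlap, and within each the levels were highest in set 2 and lowest in set 4. The difference was 0.91 ± 0.16, or 1.88-fold (limma adjusted p = 0.0444). Hoxa3 had levels of 0.54, 0.21 and 0.16 in RARaKO atRA on probe set 1427433_s_at, against -0.16, -0.63 and -0.75 in RARaKO EtOH. The order of the sets was the same in both groups, which stayed apart. The difference was 0.82 ± 0.14, or 1.76-fold (adjusted p = 0.0384). Both calls sat close to the threshold in this fit, which holds no set term. With the set as a block Hoxa4 stood at 0.91 ± 0.11 (limma adjusted p = 0.00402). This Hoxa3 probe set stood at 0.82 ± 0.08 with the block (limma adjusted p = 0.000806). In the fit without a set term, no Hoxa probe set was called without RARaKO atRA replicate 2 or 3 or RARaKO EtOH replicate 3 or 4. The WT arrays enter this comparison through the spread, which the fit shares over all groups. Without WT atRA replicate 2, 3 or 4, or WT EtOH replicate 3 or 4, no Hoxa probe set was called either. Just 1 was called without RARaKO atRA replicate 4 or WT EtOH replicate 2, and 4 were without RARaKO EtOH replicate 2. With the 6 RARaKO arrays alone the count was 0, and without set 3 or set 4 it was 0.

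Hoxa5 had levels of 0.92, 0.23 and 0.05 in RARaKO atRA on probe set 1448926_at, against -0.40, -0.89 and -1.07 in RARaKO EtOH. Set 2 stood well above the other sets in each group, but no EtOH array reached an atRA array. The difference was 1.19 ± 0.22, or 2.28-fold (limma adjusted p = 0.0549). With the set as a block it was 1.19 ± 0.09 (adjusted p = 0.000191), and with quantile normalization 1.14 (adjusted p = 0.0299). Hoxa2 had levels of 0.14, 0.36 and -0.03 in RARaKO atRA, against 0.03, -0.36 and -0.57 in RARaKO EtOH. Its groups overlapped, by way of the high set 2 vehicle array. The difference was 0.45 ± 0.14, or 1.37-fold (adjusted p = 0.333). The probe sets 1452421_at of Hoxa3 (0.39 ± 0.10, adjusted p = 0.232, and 0.0236 without RARaKO EtOH replicate 2) and 1443803_x_at of Hoxa5 (0.37 ± 0.09, adjusted p = 0.185) gave nearly the values they gave in WT.

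Among the 5 genes from Hoxa7 to Hoxa13 no probe set was called in the arrays labelled RARaKO, with differences from 0.07 (Hoxa11) to 0.20 (Hoxa9, 1455626_at). Hoxa7 came nearest, at 0.19 ± 0.08 (95% interval 0.02 to 0.36, limma adjusted p = 0.539). Its levels were 0.09, -0.05 and -0.01 in RARaKO atRA, against -0.28, -0.19 and -0.08 in RARaKO EtOH, groups that came close without overlapping. With the same cut of the cluster, the median of these 6 probe sets was 0.11, against 0.42 for the 8 from Hoxa2 to Hoxa5.

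Arrays of the same set can also be compared directly, as the difference of atRA minus EtOH within a set. Hoxa5 (1448926_at) responded by 1.32, 1.12 and 1.12 in the arrays labelled RARaKO in sets 2, 3 and 4, and by 1.22, 1.27 and 1.36 in WT. Its mean over the 4 arrays of a set was 0.41 in set 2, against -0.10 in set 3 and -0.18 in set 4. Hoxa4 responded by 0.87, 0.87 and 0.98 in the arrays labelled RARaKO and by 1.14, 1.15 and 1.46 in WT. Hoxa3 (1427433_s_at) responded by 0.70, 0.84 and 0.91 in the arrays labelled RARaKO and by 0.99, 0.96 and 1.08 in WT. For Hoxa4 and this Hoxa3 probe set the WT response was the larger within each of the 3 sets. Hoxa2 was the least steady in the arrays labelled RARaKO, with 0.10, 0.72 and 0.54, against 0.80, 0.90 and 1.09 in WT, where again each WT value was the larger of its set. Across genotypes these comparisons match arrays by number. In atRA, with group means taken out, r between same-numbered RARaKO and WT arrays was 0.287, 0.144 and 0.0375 in sets 2, 3 and 4. Set 4 thus missed the rule for pairing, an r over 0.1 in all 3 sets. The within-set comparisons are given as a description, and the share of all probe sets with such an order was not counted.

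**Figure D3:**
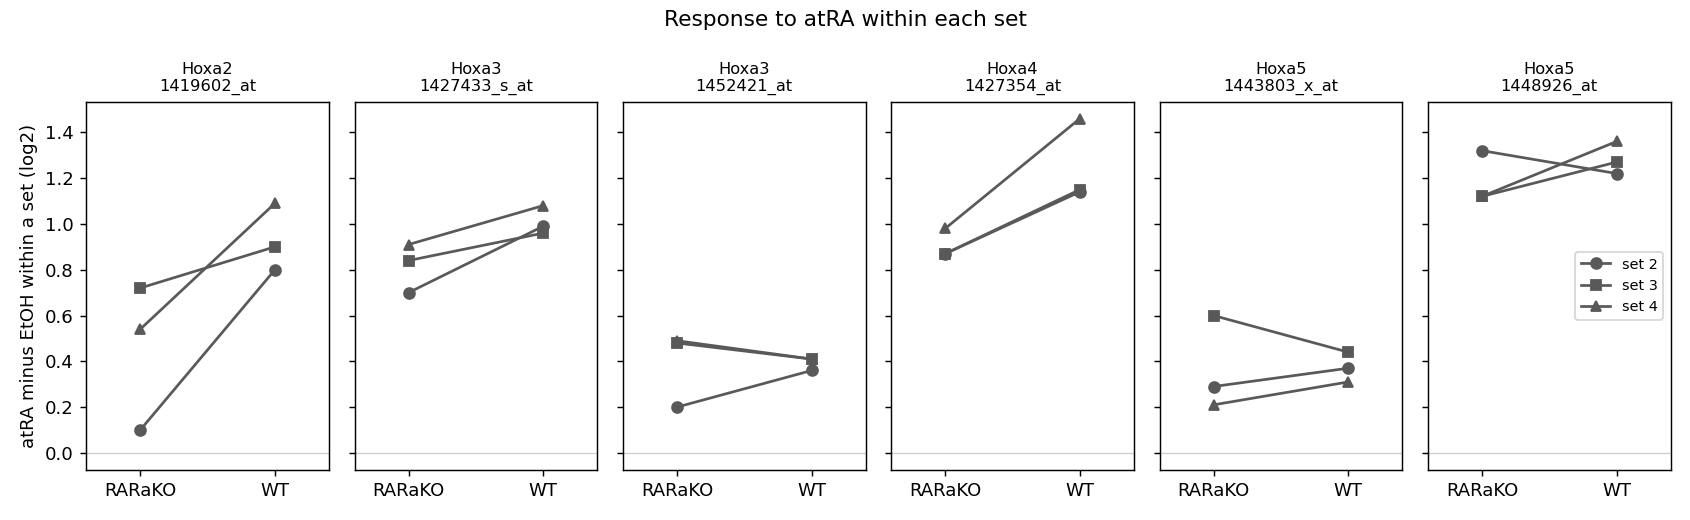
Difference of atRA minus EtOH within a set (log2) for 6 probe sets of Hoxa2 to Hoxa5, in RARaKO and in WT, with a line joining the 2 genotypes of a set. Every line of Hoxa2, Hoxa4 and Hoxa3 1427433_s_at lies lower at RARaKO, while the lines of Hoxa5 1448926_at cross between 1.12 and 1.36. The set numbers missed the rule for pairing the atRA arrays of the 2 genotypes, by way of set 4 (r = 0.0375).

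Whether the genotype label altered the response was tested as the difference of the 2 responses, RARaKO minus WT. No Hoxa probe set was called (0 of 14, limma), against 0% of all 37600, and 1 had an unadjusted p under 0.05, against 3.11% of all. That was Hoxa2, at -0.48 ± 0.19 (95% interval -0.90 to -0.06, adjusted p = 1). The intervals of the other called genes took in 0 along with sizable losses, at -0.34 (-0.85 to 0.16) for Hoxa4, -0.19 (-0.63 to 0.25) for Hoxa3 1427433_s_at and -0.09 (-0.78 to 0.59) for Hoxa5 1448926_at. All 8 probe sets from Hoxa2 to Hoxa5, of 4 genes on the same arrays, had a difference below 0, with a median of -0.07, against 0.00801 over all probe sets. Several lay close to 0, at -0.01 for Hoxa3 1429398_at, Hoxa3 1452421_at and Hoxa5 1443803_x_at and -0.04 for Hoxa3 1431392_at. Each of these changed sign in 4 to 10 of 21 alternatives, so the count does not show a uniformly smaller response. The 6 from Hoxa7 to Hoxa13 ranged over -0.15 to 0.17.

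With atRA, the comparison of genotypes placed the arrays labelled RARaKO below WT for most members without passing the test, though single members passed under some alternatives. No Hoxa probe set was called (0 of 14, limma), against 3.12% of all, and 6 had an unadjusted p under 0.05, all lower, against 17.9% of all. The 3 RARaKO arrays lay wholly below the 3 WT arrays in 6 of 14, against 10.5% of all. The largest difference was in Hoxa2, where levels of 0.14, 0.36 and -0.03 in RARaKO atRA stood against 0.70, 0.61 and 0.79 in WT atRA, a difference of -0.54 ± 0.14 (adjusted p = 0.0529). Over the alternatives its adjusted p ranged over 0.0184 to 0.28. It passed the threshold in the fit of the 6 atRA arrays alone (0.0449), with array weights (0.0223), with a variance prior per level class (0.0386), and without RARaKO atRA replicate 3, RARaKO EtOH replicate 2 or RARaKO EtOH replicate 4. Hoxa5 1448926_at differed by -0.52 ± 0.22 with overlapping groups (adjusted p = 0.247), and passed without the whole of set 2 (-0.66, adjusted p = 0.0238) and with quantile normalization (-0.81, adjusted p = 0.0399). Hoxa4 differed by -0.42 ± 0.16 (adjusted p = 0.197) without overlap between groups, and passed with quantile normalization (-0.61, adjusted p = 0.0378). Hoxa3 1427433_s_at differed by -0.36 ± 0.14 (adjusted p = 0.211), also without overlap. Over the alternatives the adjusted p ranged over 0.0213 to 0.525 for this Hoxa3 probe set, 0.0378 to 0.501 for Hoxa4 and 0.00686 to 0.579 for Hoxa5 1448926_at. With the set as a block 4 of the 14 passed, against 6.23% of all, though set 4 missed the rule for pairing these arrays (r = 0.0375). They were Hoxa2 (limma adjusted p = 0.0264), this Hoxa3 probe set (0.0213), Hoxa4 (0.0461) and Hoxa5 1448926_at (0.00686). Hoxa9 1455626_at differed by -0.31 ± 0.12 (adjusted p = 0.199, and 0.0321 without WT atRA replicate 3) and Hoxa10 by -0.25 ± 0.11 (adjusted p = 0.242).

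With vehicle alone, no member passed the test of genotype either, and the probe sets whose groups stood apart lay from Hoxa7 on. No Hoxa probe set was called (0 of 14, limma), against 3.01% of all, and 4 had an unadjusted p under 0.05, all lower, against 15.3% of all. The groups stood apart in 4 of 14, with the RARaKO arrays lower, against 12.7% of all. Of these Hoxa7 differed by -0.23 ± 0.08 (adjusted p = 0.16), Hoxa9 1455626_at by -0.31 ± 0.12 (adjusted p = 0.233), Hoxa11 by -0.15 ± 0.07 (adjusted p = 0.288) and Hoxa13 by -0.32 ± 0.12 (adjusted p = 0.213). Of the Hoxa13 difference much came from set 4, where WT EtOH read 0.49, against 0.06 and 0.00 in sets 2 and 3. Hoxa2 differed by -0.07 ± 0.14, Hoxa4 by -0.08 ± 0.16 and Hoxa3 1427433_s_at by -0.16 ± 0.14. Hoxa5 1448926_at differed by -0.43 ± 0.22 (adjusted p = 0.402), and with the set as a block by -0.43 ± 0.09 (adjusted p = 0.0176). Within sets 2, 3 and 4 its differences were -0.34, -0.40 and -0.53.

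**Figure D4:**
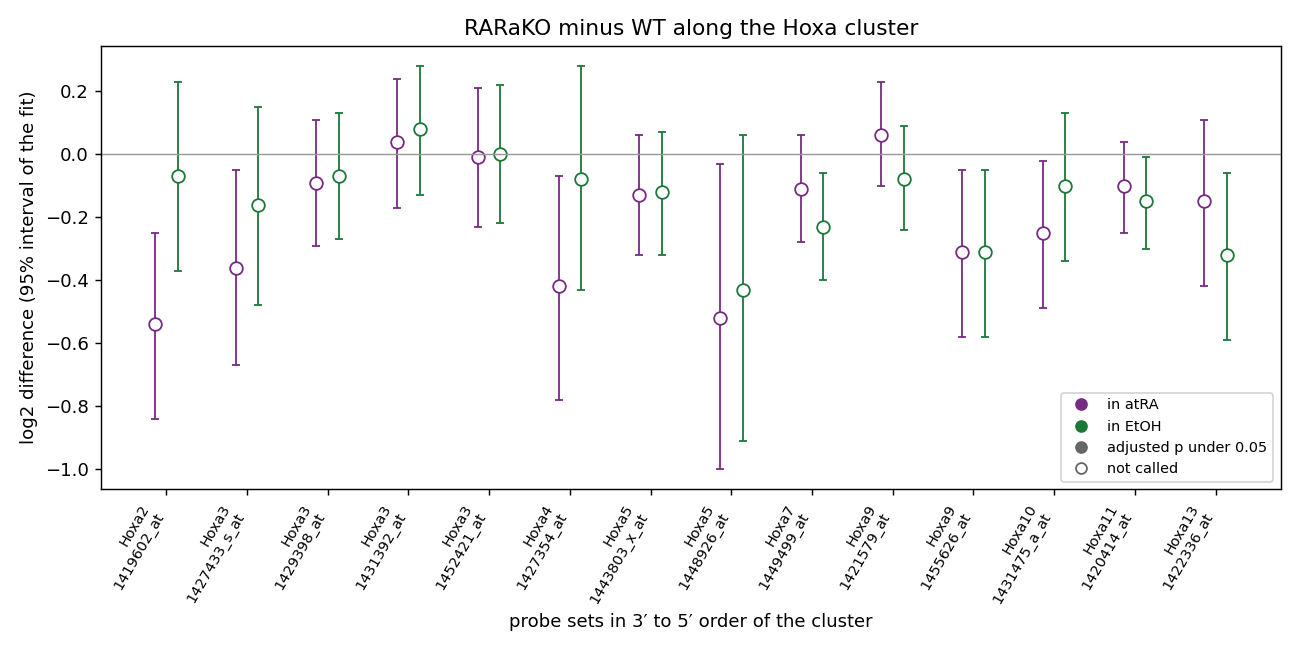
Log2 difference of RARaKO minus WT for the 14 Hoxa probe sets in 3′ to 5′ order, in atRA (purple) and in EtOH (green), with bars for the 95% interval of the fit. All points are open, since none was called, and the largest differences are those of Hoxa2 (-0.54) and Hoxa5 1448926_at (-0.52) in atRA.

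Other genes of the pathway were counted with 1 probe set a gene. By that count Hoxa gave 1 of 9 genes called in the arrays labelled RARaKO and 3 of 9 in WT, since the probe set that stood for Hoxa3 was 1429398_at. Of all probe sets, 0.215% were called higher in the arrays labelled RARaKO and 0.484% in WT. The share of all genes called with 1 probe set a gene was not counted. Hoxb gave 3 of 9 in each genotype, namely Hoxb1, Hoxb2 and Hoxb5, with medians of 0.27 in the arrays labelled RARaKO and 0.43 in WT. By paralogue, Hoxb2 rose by 0.68 ± 0.10 in the arrays labelled RARaKO and 0.99 ± 0.10 in WT, beside 0.45 and 0.93 for Hoxa2. Hoxb5 rose by 1.25 ± 0.13 in the arrays labelled RARaKO and 1.63 ± 0.13 in WT, beside 1.19 and 1.28 for Hoxa5. Hoxb3 repeated the disagreement of probe sets, with 0.56 ± 0.09 in the arrays labelled RARaKO and 1.02 ± 0.09 in WT on 1456229_at (called in both), beside 0.26 ± 0.09 in the arrays labelled RARaKO and 0.34 ± 0.09 in WT on 1427605_at (called in neither), the probe set counted. For Hoxb4 the probe set counted, 1451761_at, stood at 0.43 ± 0.11 in each genotype (called in neither). Its 1460379_at stood at 0.54 ± 0.11 in the arrays labelled RARaKO (limma adjusted p = 0.0961). In WT 1460379_at stood at 0.57 ± 0.11 and was called (adjusted p = 0.0407). Of Hoxc and Hoxd, 0 of 6 measured genes each were called in either genotype (limma), and none had an unadjusted p under 0.05 on the probe set counted. Their medians lay between -0.05 and 0.04. On probe sets not counted, Hoxc6 1427362_x_at stood at -0.23 ± 0.08 in WT (limma unadjusted p = 0.0136, adjusted p = 0.441). Hoxd13 1440626_at stood at -0.20 ± 0.08 in WT (unadjusted p = 0.0216, adjusted p = 0.534). Between genotypes, 4 of 9 Hoxb genes were called lower in the arrays labelled RARaKO in atRA and 2 of 9 in EtOH. Of all probe sets, 3.12% in atRA and 3.01% in EtOH were called in either direction. Hoxb5 stood at -1.17 ± 0.13 in atRA and -0.78 ± 0.13 in EtOH, beside -0.52 and -0.43 for Hoxa5. Of Hoxc, 1 of 6 was called lower in atRA (Hoxc10, -0.45 ± 0.10, limma adjusted p = 0.0309) and 0 in EtOH. Of Hoxd, 0 of 6 were called in either.

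**Figure D5:**
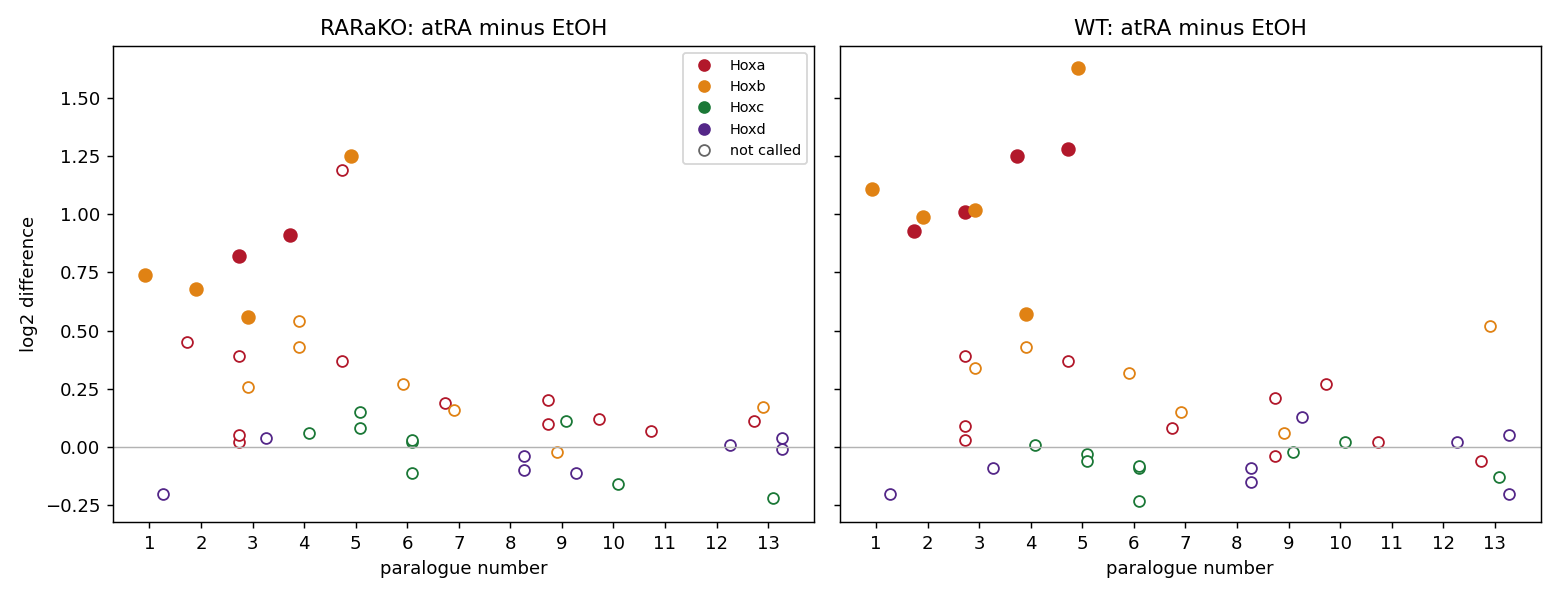
Log2 difference of atRA minus EtOH by paralogue number for single-symbol probe sets of Hoxa, Hoxb, Hoxc and Hoxd, in RARaKO (left) and WT (right), filled where the adjusted p was under 0.05. All filled points are Hoxa or Hoxb probe sets with a paralogue number of 5 or lower.

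Of the factors that act on Hox genes, Cdx1, a caudal homeobox gene, rose by 1.45 ± 0.13 in the arrays labelled RARaKO and 1.74 ± 0.13 in WT, 1 of 5 measured. Another caudal gene, Cdx4, went the other way without being called, at -0.59 ± 0.16 in the arrays labelled RARaKO (limma adjusted p = 0.252). In WT Cdx4 stood at -0.45 ± 0.16 (adjusted p = 0.474). Of 8 cofactors that bind DNA with Hox proteins, Pbx2 alone was called, at 0.38 ± 0.06 in the arrays labelled RARaKO and 0.56 ± 0.06 in WT. Meis1, Meis2 and Meis3 were not, with values from -0.07 to 0.27. Of 6 receptors Rarb rose in both (0.95 ± 0.09 in the arrays labelled RARaKO, 1.35 ± 0.09 in WT) and Rara in WT (0.45 ± 0.09). Cyp26a1, Stra6 and Dhrs3 rose in both, of 9 measured retinoid enzymes and carriers. None of 17 Polycomb and trithorax genes, whose products silence or maintain Hox clusters, was called in either genotype (limma; unadjusted p under 0.05 for 1 in the arrays labelled RARaKO and 0 in WT). Nor was any of 9 genes that flank the cluster (unadjusted for 3 in the arrays labelled RARaKO and 1 in WT). Evx1, beside Hoxa13, differed by 0.06 ± 0.07 in the arrays labelled RARaKO and 0.11 ± 0.07 in WT, and Skap2, beyond the 3′ end, by 0.19 ± 0.09 in the arrays labelled RARaKO and 0.00 ± 0.09 in WT.

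The probe sets of other genes whose levels over the 12 arrays were most like those of the called members are given as a description, with no p, from 30474 compared. For Hoxa2 they were 2 probe sets of Mkrn1 (Pearson's r = 0.968 and 0.940) and 1 of Trak2 (0.921). For Hoxa3 1427433_s_at they named Prrt3 (0.965), Atp11b (0.961) and Calr (0.961). For Hoxa4 they were Mbd6 (0.962), Prrt3 (0.960) and Calr (0.956), and for Hoxa5 1448926_at Ercc4 (0.947), Calr (0.947) and Atp11b (0.943). With group means taken out, so that the response itself no longer counts, these 12 values lay between 0.671 and 0.919. The probe sets share the same arrays and sets.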

How the data were processed

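Each of the 12 arrays took its target from 5 µg of RNA, according to the labels' protocols. The authors deposited log-scale expression values per probe set, processed with GCRMA per the submitters' processing notes; its version and the log base are not given in the sources used here, and the deposited scale is taken to be log2. Testing the deposited values showed each probe set centred on its median over the 12 arrays, a step no label records. Scanner files were not used here, so background correction could not be varied. Of 37661 probe sets 61 controls were left out. The platform annotation gave 30488 probe sets a single symbol, 784 several and 6328 none; those with several or none were tested, not named.

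A single linear model gave each of the 4 groups a mean (limma 3.58.1 with eBayes in R 4.3.3, where 8 degrees of freedom came from the arrays and 4.6 from the prior), two-sided, with Benjamini-Hochberg adjustment over 37600 probe sets for each of 5 comparisons; the code was tested on simulated data. The number of arrays limits the precision. The level class came from the single-precision steps of the 7 highest values of a probe set; 36.4% of probe sets fell at 8 or above, 58.3% between 4 and 8, and 5.3% lower or unresolved.

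Same-numbered arrays deviated together (r 0.117 to 0.497 in RARaKO, 0.101 to 0.392 in WT and 0.116 to 0.238 in EtOH, each over 0.1 in all 3 pairs) for atRA against EtOH in either genotype and for RARaKO against WT in EtOH, so there the numbers pair the arrays. The model holds no set term, and the value with the set as a block is given beside a result whose call it changes. In RARaKO against WT in atRA r was 0.287, 0.144 and 0.0375 in sets 2, 3 and 4. Set 4 missed the rule of over 0.1 in all 3 pairs, so there the numbers were not taken to pair the arrays.

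The members, lists, motifs and alternatives were chosen with earlier results of these data known. The rule for naming took all probe sets of the 9 genes, up to 4 members of each list, and the 3 most like probe sets of each member called in WT.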

Additional observations from a re-analysis of the deposited data

How the results depend on the processing

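The Hoxa values, the counts of Hoxa probe sets called and the counts over all probe sets were recomputed with the set as a replicate block, robust eBayes, a variance prior per level class, array weights, quantile normalization, median centring, probe sets of level class 8 or above alone, the 6 compared arrays alone (which the difference of responses does not allow), and without each array and each set. The other gene lists, correlations, position and promoter counts have no alternatives. No called Hoxa value changed sign under any of these. The count of Hoxa probe sets called in the RARaKO response (2) became 1 in level class 8 alone, where just 1 was tested, 1 with array weights, 0 with the 6 arrays alone and 3 with quantile normalization or the set as a replicate block, and ranged over 0 to 4 without single arrays or sets. In the WT response (4) it became 1 in level class 8 alone and ranged over 0 to 5 without single arrays or sets. The difference of responses gave 0 throughout. RARaKO minus WT in atRA (0), where the set numbers did not meet the rule for pairing, gave 4 under the replicate block (Hoxa2 adjusted p = 0.0264, Hoxa3 0.0213, Hoxa4 0.0461, Hoxa5 0.00686), 1 with a prior per class, 1 with array weights, 2 with quantile normalization and 1 with the 6 arrays alone, and 0 to 1 without arrays or sets. For RARaKO minus WT in EtOH (0) it was 1 with the block. With the block the WT response called 5, and the 2 responses called 167 (RARaKO) and 339 (WT) of all probe sets, against 99 and 214 without it. For the genotypes the block called 2344 of all probe sets in atRA and 1972 in EtOH, against 1173 and 1131 without it. The cause was not tested. Over all alternatives but leaving out arrays or sets, 14 to 167 of all probe sets were called in the RARaKO response. In the WT response these alternatives called 171 to 382. For RARaKO minus WT they called 592 to 2344 in atRA and 1090 to 2071 in EtOH. Leaving out an array gave 39 to 88 of all probe sets in the RARaKO response and 107 to 226 in the WT response. With group means taken out and arrays of the same group left aside, all 12 arrays correlated best with an array of their own set, as a hint from the data. With 3 arrays per group and no absolute levels held, distance from background could not be read and small differences may go uncalled.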

Other observations

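The called Hoxa probe sets also moved together within groups. Over the 12 arrays the 6 pairs among Hoxa2, Hoxa3 1427433_s_at, Hoxa4 and Hoxa5 1448926_at had Pearson's r from 0.905 to 0.988. With group means taken out it ran from 0.566 (Hoxa2 with Hoxa5) to 0.948 (Hoxa3 with Hoxa5), so Hoxa2 followed the others least. These pairs share arrays and sets, and the part of set levels in these values was not tested.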
